A study of Homo sapiens with 8 samples.

Results

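The EGF receptor family is described here at the level of mRNA, through 10 genes in cultured human keratinocytes. The genes were chosen by symbol and comprise 3 receptors (EGFR, ERBB2 and ERBB3), 6 ligands made by keratinocytes (AREG, EREG, HBEGF, TGFA, BTC and EPGN) and 1 inhibitor of the receptors (ERRFI1), out of 61806 genes in the deposited table. They, and the lists of related genes below, were chosen with earlier results of these data known. Shares over all genes tested are therefore given beside them as description only. The libraries came from wild-type N/TERT-1 cells, an immortalized line of epidermal keratinocytes, which is a single line and not a set of donors. In 4 libraries the cells had received ethanol, the solvent, and in 4 they had received O/A, a mixture of oligomycin (an inhibitor of the mitochondrial ATP synthase) and antimycin A (an inhibitor of respiratory complex III). Treatment for the mRNA-seq lasted 4 hours, and the O/A used for imaging held oligomycin at 10 µM with antimycin A at 4 µM, whereas no dose is stated for the mRNA-seq itself. The libraries of each condition came from 4 independent experiments. Both conditions shared a serum-free keratinocyte medium with recombinant EGF and bovine pituitary extract, so the receptor family had a ligand from the medium in ethanol and in O/A alike.

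EGFR is a receptor tyrosine kinase that dimerizes with itself or with another ERBB receptor once a ligand binds, and it signals through the RAS-ERK and PI3K-AKT pathways. Its ligands are made as precursors anchored in the membrane, and proteases of the ADAM family shed them from the cell surface, where they act on the same or on neighbouring cells. In the epidermis this loop is known for its part in keratinocyte proliferation, migration and wound closure.

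The total count per library was 17210404 to 20999927 in ethanol and 17689760 to 19263046 in O/A. Between replicates, counts varied beyond sampling noise (chi-square per degree of freedom 1.78 to 5.95 over 11168 genes), so none was a copy of another. Each of 8 keratinocyte markers was expressed, with a summed level of 5263 to 5564 FPKM in ethanol and 4669 to 4846 FPKM in O/A. FPKM is the count per kilobase of exonic sequence, scaled to the library total, as deposited. Of these 8 markers, 1 (DSG3) was upregulated, 2 (KRT5 and SFN) were downregulated and 5 were not called. Markers of fibroblasts, melanocytes, leukocytes and endothelial cells summed to at most 2.95, 0.66, 1.09 and 0.06 FPKM per library, and COL1A1 held nearly all of the fibroblast sum, while TYR and MLANA had no count in any library. These are bulk libraries, so fewer cells that express a gene and less of its RNA per cell cannot be told apart.

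All 10 genes had enough reads to be tested, and 7 of them were upregulated in O/A: AREG, EREG, HBEGF, TGFA, EPGN, EGFR and ERRFI1. Calls, in either direction, required an adjusted p of 0.05 or less in edgeR's quasi-likelihood test together with a log2(FC) beyond 0.25 or -0.25, and 15.8% of the 14893 genes tested were upregulated by that rule. Of the 6 ligands, 5 were upregulated. A log2(FC) above 1 was passed by 5 of the 10 genes in the upward direction, against 2.56% of all genes tested. None of the 10 was downregulated in edgeR's test, against 18.9% of all genes tested, and none was by DESeq2, while 2 (ERBB2 and ERBB3) had a negative log2(FC) with an unadjusted p below 0.05 in edgeR's test. Every O/A library lay above every ethanol library for 7 genes, against 22.8% of all genes tested, and below for 1 gene, against 24.8%, so that groups did not overlap for 8 of the 10 genes and for 47.6% of all genes tested. The median log2(FC) was 1.77 over the 6 ligands and -0.12 over the 3 receptors, beside -0.0004 over all genes tested.

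**Figure D1:**
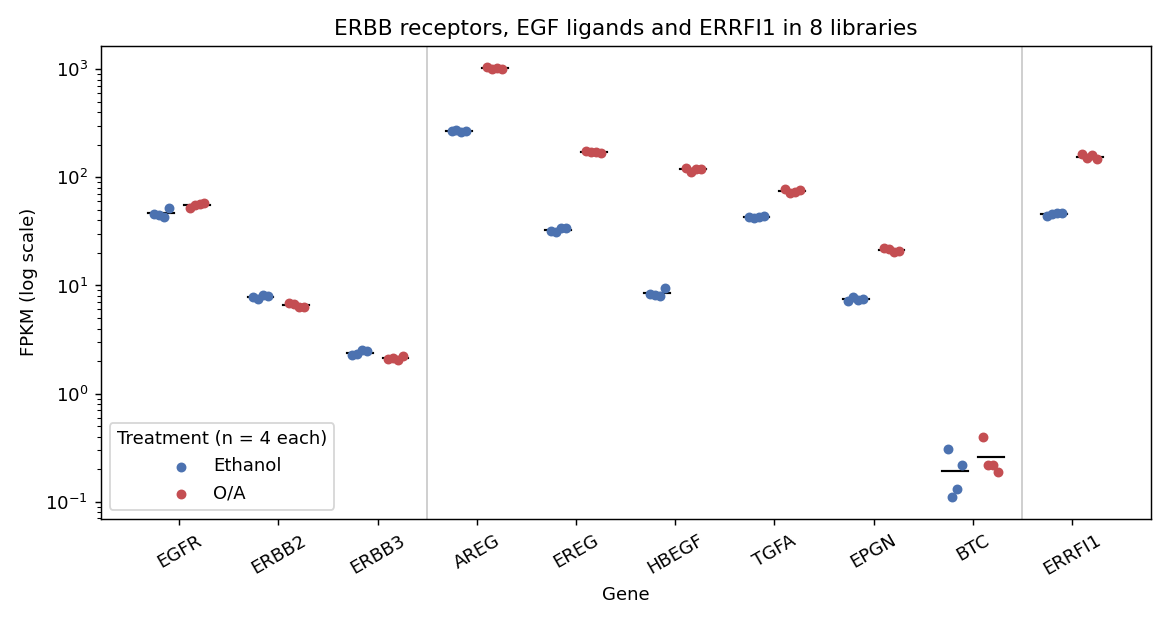
Deposited FPKM (y axis, log scale) of each gene (x axis) in each library, as points, blue for ethanol and red for O/A (n = 4 each), with a black bar at the mean. Gray lines separate receptors, ligands and the inhibitor. The points of AREG, EREG, HBEGF, TGFA, EPGN and ERRFI1 form separate bands by condition, those of the 3 receptors lie close together, and those of BTC overlap below 0.5 FPKM.

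HBEGF, heparin-binding EGF-like growth factor, showed the largest rise of the 10. It lies on the minus strand of chromosome 5 of GRCh38 from 140332843 to 140346603. Its level was 8.41, 8.13, 7.99 and 9.48 FPKM in ethanol replicates 1 to 4 and 122.17, 113.00, 120.29 and 120.23 FPKM in O/A replicates 1 to 4. The groups were far apart, since the lowest O/A library was 11.9 times the highest ethanol library. HBEGF changed by a log2(FC) of 3.85 (standard error 0.040, edgeR adjusted p = 3.59e-43), a 14.4-fold rise that placed HBEGF ninth among the 14893 genes tested when these were ordered by log2(FC). The counts behind it ranged from 411 to 595 in ethanol and from 6357 to 6928 in O/A. In the order of all 61806 genes by mean FPKM, HBEGF moved from place 4788 in ethanol to place 247 in O/A.

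AREG (amphiregulin), EREG (epiregulin) and EPGN (epithelial mitogen, or epigen) are neighbours on the plus strand of chromosome 4 of GRCh38, and all 3 rose. EPGN lies from 74308470 to 74316789, EREG from 74365145 to 74388749 and AREG from 74445136 to 74455005. Gaps of 48355 bases separate EPGN from EREG and 56386 bases EREG from AREG. BTC (betacellulin) lies 289753 bases further on, from 74744759 to 74794523 on the minus strand. The table lists 6 genes in this span of 486054 bases, and both genes that are not ligands are unnamed minus-strand genes with at most 3 and at most 26 counts in any library.

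Promoter windows of AREG, EREG, EPGN and HBEGF are shown because these are the 3 adjacent ligand genes that rose and the ligand with the largest rise. Each runs from 250 bases before to 50 bases after the transcript start, 5′ to 3′ on the strand of the gene, from RefSeq on GRCh38.p14. They are chr4:74444886-74445185 (plus strand) for AREG, chr4:74364895-74365194 (plus) for EREG, chr4:74308220-74308519 (plus) for EPGN and chr5:140346554-140346853 (minus) for HBEGF. Capitals mark matches on either strand to the TATA motif TATAAA, to the cAMP response element (CRE) TGACGTCA and to the GC box GGGCGG.
AREG: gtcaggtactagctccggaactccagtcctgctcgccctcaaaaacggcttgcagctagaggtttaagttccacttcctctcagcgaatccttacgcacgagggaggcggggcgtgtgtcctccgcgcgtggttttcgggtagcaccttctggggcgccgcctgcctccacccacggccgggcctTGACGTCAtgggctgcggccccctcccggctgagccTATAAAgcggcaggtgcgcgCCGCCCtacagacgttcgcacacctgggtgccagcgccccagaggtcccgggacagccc
EREG: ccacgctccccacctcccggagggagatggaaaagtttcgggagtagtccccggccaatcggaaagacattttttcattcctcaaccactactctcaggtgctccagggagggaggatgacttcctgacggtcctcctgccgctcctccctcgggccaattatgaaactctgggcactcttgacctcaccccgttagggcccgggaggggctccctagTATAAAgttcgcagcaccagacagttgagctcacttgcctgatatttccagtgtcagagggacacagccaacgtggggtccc
EPGN: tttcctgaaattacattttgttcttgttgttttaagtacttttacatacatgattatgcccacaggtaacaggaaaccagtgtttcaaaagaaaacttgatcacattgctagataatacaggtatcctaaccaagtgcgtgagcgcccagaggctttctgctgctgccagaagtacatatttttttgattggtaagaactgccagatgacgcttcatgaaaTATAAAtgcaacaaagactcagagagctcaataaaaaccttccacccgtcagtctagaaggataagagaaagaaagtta
HBEGF: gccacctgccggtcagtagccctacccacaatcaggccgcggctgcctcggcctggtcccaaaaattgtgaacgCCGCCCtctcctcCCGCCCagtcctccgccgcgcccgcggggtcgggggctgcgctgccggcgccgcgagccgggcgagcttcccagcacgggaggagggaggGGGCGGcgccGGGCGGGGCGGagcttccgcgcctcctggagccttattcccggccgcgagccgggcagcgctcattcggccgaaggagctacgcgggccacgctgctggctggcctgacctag

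The promoter table held 11 windows for 9 of the 10 genes, and ERBB3 had no entry. TATAAA was found on the plus strand of the AREG, EREG and EPGN windows. Its first base lay at position -29 in AREG, -32 in EREG and -29 in EPGN, counting the transcript start as 0. The BTC window, also from chromosome 4, held no TATAAA match. TATAAA on either strand occurs in 11.5% of all 35116 windows. A plus-strand TATAAA that begins between -35 and -20 occurs in 2.21% of them and in 3 of the 9 genes looked at. This range was set after the matches were seen. EGFR had 2 windows, and the one at chr7:55109589-55109888 belongs to a transcript start 90822 bases downstream of the annotated start of the gene. This downstream window had a plus-strand TATAAA that begins at -36, just outside the range. The window at the annotated start, chr7:55018767-55019066, had no TATAAA match. The CRE match of AREG begins at position -65, and 1.85% of all windows hold this sequence on either strand. HBEGF had 5 GC box matches, of which a pair share 1 base, and 45.0% of all windows hold at least 1. GC boxes also matched in windows of AREG, TGFA, BTC and ERRFI1 and in the window at the annotated start of EGFR. Searches for TGANTCA (AP-1), which 7.71% of all windows hold, and for TGATGNAA (the CARE element), which 3.62% hold, gave no match in the 4 windows shown. Among the windows not shown, TGANTCA matched in the downstream EGFR window, at -232 and -136, and in the ERBB2 window, at -222. It did not match in the window at the annotated start of EGFR. The windows also differ in base composition, with a GC content of 37.7% in EPGN, 57.7% in EREG, 66.3% in AREG and 75.0% in HBEGF.

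By FPKM, AREG was the most abundant of the 10 genes in both conditions. The values in ethanol replicates 1 to 4 were 266.75, 276.86, 260.37 and 266.02 FPKM. In O/A they were, in the same order, 1039.92, 996.48, 1032.44 and 997.53 FPKM. The groups did not overlap, and the coefficient of variation within a condition was 2.56% in ethanol and 2.25% in O/A. For AREG, the log2(FC) was 1.97 (standard error 0.026, edgeR adjusted p = 2.88e-48), a 3.92-fold rise, on 7358 to 9173 reads (ethanol) and 29034 to 32656 reads (O/A). AREG stood at place 82 of all 61806 genes by mean FPKM in ethanol and at place 23 in O/A.

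EREG, which like AREG is a ligand of EGFR and can also activate ERBB4, rose more than AREG on the fold scale from a lower level. It had 31.78, 30.97, 33.83 and 34.07 FPKM in ethanol replicates 1 to 4 and 176.85, 172.17, 172.62 and 166.47 FPKM in O/A replicates 1 to 4, without overlap. EREG changed by a log2(FC) of 2.44 (standard error 0.029, edgeR adjusted p = 1.78e-48), which is 5.43-fold.

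EPGN had 7.24, 7.83, 7.36 and 7.48 FPKM in ethanol replicates 1 to 4 and 22.34, 21.96, 20.46 and 20.86 FPKM in O/A replicates 1 to 4. All O/A libraries were above all ethanol libraries, and the lowest of them was 2.61 times the highest ethanol library. The resulting log2(FC) of EPGN was 1.56 (standard error 0.046, edgeR adjusted p = 5.83e-33), a 2.95-fold rise.

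TGFA, transforming growth factor alpha, was the second most abundant ligand in ethanol and had the smallest rise of the 5 upregulated ligands. It lies on the minus strand of chromosome 2 of GRCh38 from 70447284 to 70554193. Its level was 42.69, 42.48, 42.98 and 44.17 FPKM in ethanol replicates 1 to 4 and 77.50, 72.11, 73.37 and 75.77 FPKM in O/A replicates 1 to 4. The groups did not overlap. TGFA changed by a log2(FC) of 0.84 (standard error 0.028, edgeR adjusted p = 4.62e-31), or 1.79-fold.

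BTC had too few reads for a change to be measured with any precision, with 15, 5, 6 and 12 counts in ethanol replicates 1 to 4 and 19, 11, 11 and 9 in O/A replicates 1 to 4. The groups overlapped. For BTC, the log2(FC) was 0.45 with a 95% interval of -0.26 to 1.16 (edgeR adjusted p = 0.292), so that neither an absence of change nor a rise like that of TGFA can be told from these counts. BTC is thus the member of the chromosome 4 group that was not called. It is also the most distant of the 4 from the others, but a relation between position and change was not tested.

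The 3 receptors had log2(FC) values between -0.21 and 0.30, and 1 of them, EGFR, was called. EGFR lies on the plus strand of chromosome 7 of GRCh38 from 55019017 to 55211628, and it had 46.08, 44.91, 43.04 and 51.94 FPKM in ethanol replicates 1 to 4 and 52.24, 56.02, 56.32 and 57.63 FPKM in O/A replicates 1 to 4. The groups did not overlap, but only just, since ethanol replicate 4 and O/A replicate 1 differed by less than 1 FPKM. The EGFR log2(FC) was 0.30 with a 95% interval of 0.14 to 0.46 (standard error 0.065, edgeR adjusted p = 0.00687), a 1.23-fold rise that was close to the threshold. Under quantile normalization the log2(FC) was 0.17 (limma adjusted p = 0.105) and the call was lost, and with each library left out in turn it stayed between 0.27 and 0.37.

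ERBB2, the receptor without a known ligand of its own and the preferred partner of the other receptors in dimers, lies on the plus strand of chromosome 17 of GRCh38 from 39687914 to 39730426. It had 7.78, 7.52, 8.21 and 7.95 FPKM in ethanol replicates 1 to 4 and 6.85, 6.78, 6.33 and 6.37 FPKM in O/A replicates 1 to 4. All 4 O/A libraries were below all ethanol libraries. The ERBB2 log2(FC) was -0.21 with a 95% interval of -0.29 to -0.14 (edgeR adjusted p = 4.74e-06), which is inside the fold threshold, so ERBB2 was not called. On log2(FPKM + 0.1) the log2(FC) was -0.25, just past the threshold. ERBB2 overlaps MIEN1 and PGAP3, which lie on the minus strand and held 30.6% and 9.36% as many counts as ERBB2. MIEN1 was upregulated, with a log2(FC) of 0.44 (edgeR adjusted p = 1.47e-07), and PGAP3 had -0.24. Whether reads were counted by strand is not given in the sources used here, so reads in the shared bases could have been lost or assigned to either gene.

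ERBB3, which binds neuregulins and has a weakly active kinase domain, was the least abundant of the 3 receptors. It lies on the plus strand of chromosome 12 of GRCh38 from 56076799 to 56103505. The values were 2.28, 2.34, 2.51 and 2.46 FPKM in ethanol replicates 1 to 4 and 2.11, 2.12, 2.05 and 2.24 FPKM in O/A replicates 1 to 4. The FPKM values did not overlap, whereas the TMM-scaled values did. ERBB3 had a log2(FC) of -0.12 with a 95% interval of -0.24 to -0.01 (edgeR adjusted p = 0.0554), and ERBB3 was not called.

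ERRFI1 (also called MIG6) binds the kinase domain of EGFR and ERBB2, inhibits it, and is itself made in response to EGFR signalling. It lies on the minus strand of chromosome 1 of GRCh38 from 8004404 to 8026309. Its level was 44.25, 45.42, 47.15 and 46.59 FPKM in ethanol replicates 1 to 4 and 163.27, 150.18, 160.63 and 147.04 FPKM in O/A replicates 1 to 4. Without overlap, the lowest O/A library was 3.12 times the highest ethanol library. For ERRFI1, the log2(FC) was 1.81 (standard error 0.031, edgeR adjusted p = 1.54e-35), a 3.50-fold rise and thus larger than that of TGFA or EPGN and smaller than that of AREG. In ethanol ERRFI1 and EGFR stood near the same FPKM, with 0.897 to 1.10 FPKM of ERRFI1 per FPKM of EGFR, and in O/A this ratio was 2.55 to 3.13.

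For each of the 7 upregulated genes and for ERBB2, the exact two-sided permutation test of 4 libraries against 4 on log2 TMM-scaled CPM gave p = 0.0286, the smallest that this design allows. The same exact permutation test gave p = 0.0571 for ERBB3 and p = 0.229 for BTC.

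**Figure D2:**
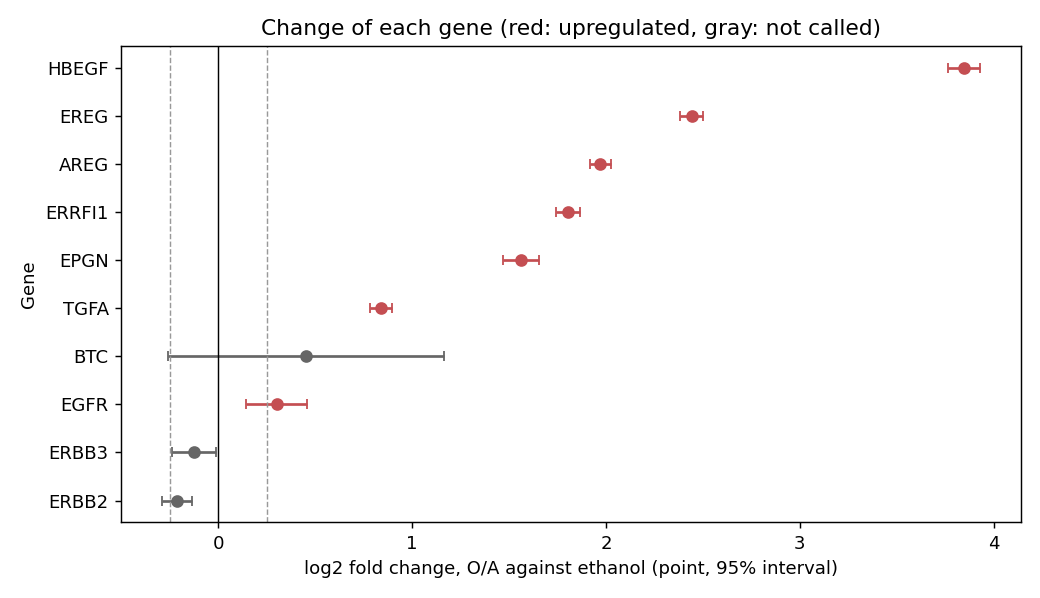
The log2(FC) of each gene in O/A against ethanol (x axis, point) with its 95% interval from edgeR's quasi-likelihood fit (horizontal bar, n = 4 libraries per condition), genes on the y axis in order of log2(FC). Solid and dashed lines mark 0 and the fold threshold of 0.25 in each direction. The 7 upregulated genes are red, from EGFR at 0.30 to HBEGF at 3.85, and the interval of BTC, from -0.26 to 1.16, is the widest.

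The order of the 10 genes by FPKM, a scale per exonic length, changed between conditions. Exonic sizes differ widely, with 15941 bases for EGFR and 1642 for AREG, so the order depends on this division. Before it, EGFR had more counts than AREG in each ethanol library (11807 to 17389 against 7358 to 9173). In O/A, AREG had more (29034 to 32656 against 14732 to 17293). In ethanol AREG led at 267.5 ± 6.86 FPKM (SD, n = 4), followed by EGFR (46.5 ± 3.84), ERRFI1 (45.9 ± 1.29), TGFA (43.1 ± 0.755), EREG (32.7 ± 1.53), HBEGF (8.5 ± 0.675), ERBB2 (7.87 ± 0.290), EPGN (7.48 ± 0.255), ERBB3 (2.40 ± 0.106) and BTC (0.193 ± 0.092). Neighbours whose ethanol ranges overlapped were EGFR with ERRFI1, HBEGF with ERBB2 and ERBB2 with EPGN. In O/A the order was AREG (1017 ± 22.8 FPKM, SD, n = 4), EREG (172.0 ± 4.26), ERRFI1 (155.3 ± 7.88), HBEGF (118.9 ± 4.05), TGFA (74.7 ± 2.41), EGFR (55.6 ± 2.32), EPGN (21.4 ± 0.889), ERBB2 (6.58 ± 0.270), ERBB3 (2.13 ± 0.080) and BTC (0.258 ± 0.096), and no neighbours overlapped. By mean FPKM, EGFR thus went from second to sixth place while its own level rose, and HBEGF stood above EGFR and TGFA in O/A on this scale. The place of EGFR in ethanol was not firm, since it exceeded ERRFI1 in 2 of 4 ethanol libraries. Its ethanol range, from 43.04 FPKM, also overlapped that of TGFA, which reached 44.17 FPKM.

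Summed over the 6 ligands, the level was 352.7 to 366.4 FPKM in the ethanol libraries and 1376 to 1439 FPKM in the O/A libraries. The 3 receptors summed to 53.8 to 62.4 FPKM in ethanol and 61.2 to 66.2 FPKM in O/A. EGFR made up 80.1% to 83.3% of the receptor sum in ethanol and 85.4% to 87.0% in O/A. Ligand mRNA per unit of EGFR mRNA was 6.96 to 8.19 in ethanol and 24.0 to 27.5 in O/A, in FPKM over FPKM. The size of this ratio depends on the division by exonic size, which is 15941 bases for EGFR.

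The makeup of the ligand sum differed between conditions as well, and the shares depend on division by length. Without it, AREG held 49.5% in ethanol and 48.4% in O/A, EREG 21.01% and 28.5%, and TGFA 23.8% and 10.7%, so the direction of each was the same. The shares that follow are of FPKM. AREG held 74.4% ± 0.895 of it in ethanol and 72.4% ± 0.233 in O/A (SD, n = 4 libraries each). The share of TGFA was 12.0% ± 0.289 in ethanol and 5.32% ± 0.143 in O/A, while that of HBEGF was 2.37% ± 0.181 and 8.47% ± 0.202. EREG had 9.09% ± 0.519 in ethanol and 12.3% ± 0.197 in O/A. Although TGFA itself rose, its share was lower in every O/A library than in every ethanol library, since the other major ligands rose more. The ratio of HBEGF to TGFA was 0.186 to 0.215 in ethanol and 1.57 to 1.64 in O/A, so TGFA was the higher of the pair in the 4 ethanol libraries and HBEGF in the 4 O/A libraries. This order in O/A holds only per length: before division by exonic size, HBEGF had fewer counts than TGFA in each O/A library (6357 to 6928 against 6604 to 6949). EPGN and BTC held at most 2.14% and 0.087% of the sum in any library.

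Other genes of the family were scarce. NRG1, a ligand of ERBB3 and ERBB4, was the most abundant of them, with 1.71 ± 0.030 FPKM (ethanol) and 2.28 ± 0.115 FPKM (O/A; SD, n = 4), and was upregulated (log2(FC) 0.46, edgeR adjusted p = 2.62e-12). NRG4 was downregulated (log2(FC) -0.95, edgeR adjusted p = 0.00236) on few reads (17 to 34 per ethanol library, 8 to 16 after O/A). EGF itself had 7 to 14 counts per library and was not called (log2(FC) -0.34). ERBB4 had 4 to 14 counts and NRG2 at most 5, too few for testing, and NRG3 had none in any library.

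Of 7 genes that act in ligand shedding, 2 were upregulated, 1 was downregulated and 4 were not called, against 34.7% of all genes called in either direction. ADAM17, the main sheddase of AREG, EREG, HBEGF and TGFA, rose from 6.40 ± 0.151 to 7.98 ± 0.261 FPKM (log2(FC) 0.37, edgeR adjusted p = 5.35e-14). RHBDL2, a rhomboid protease of the plasma membrane, rose with a log2(FC) of 0.41. TIMP3, an inhibitor of ADAM17, fell from 17.9 ± 0.718 to 9.45 ± 0.459 FPKM (log2(FC) -0.88, edgeR adjusted p = 3.63e-24). ADAM10 (log2(FC) -0.04), FRMD8 (0.06), RHBDF1 (0.17) and RHBDF2 (-0.20) were not called, of which the latter 2 encode the iRhoms that bring ADAM17 to the surface and FRMD8 a protein that binds iRhoms.

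Among 26 adaptors and signalling proteins below the receptors, 19 were not called, 5 were upregulated and 2 downregulated, beside 34.7% of all genes tested that were called in either direction, and the median log2(FC) was 0.03. The largest rises were those of GRB7, an adaptor that binds ERBB receptors (log2(FC) 1.48, edgeR adjusted p = 1.09e-21), SOS2, a RAS exchange factor (0.86), and BRAF, a kinase below RAS (0.49). PIK3R1, a regulatory subunit of PI3 kinase (log2(FC) -0.51), and PLCG1, a phospholipase recruited by EGFR (-0.45), fell.

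Of 19 genes that take part in switching the receptors off, 7 were upregulated, 4 downregulated and 8 not called, with a median log2(FC) of 0.17. Over all genes tested, 15.8% were upregulated and 18.9% downregulated. RNF41, a ubiquitin ligase for ERBB3, rose from 6.35 ± 0.195 to 12.8 ± 0.727 FPKM (log2(FC) 1.06, edgeR adjusted p = 3.17e-27). CBL, the ubiquitin ligase of activated EGFR (log2(FC) 0.55), and SH3KBP1, an adaptor of CBL (0.46), also rose. LRIG1 and LRIG3, transmembrane proteins of a family that regulates ERBB receptors, and the phosphatase PTPRJ fell, with a log2(FC) of -0.84, -0.59 and -0.38. LRIG1 had only 17 to 39 counts per library.

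Of 16 genes that respond to the ERK pathway, 11 were upregulated, 3 downregulated and 2 not called, with a median log2(FC) of 0.86, where the shares over all genes tested were 15.8% upregulated and 18.9% downregulated. EGR1 and FOS, immediate early transcription factors, and PHLDA1 rose the most. EGR1 went from 20.3 ± 3.70 to 67.3 ± 2.82 FPKM (log2(FC) 1.77, edgeR adjusted p = 1.62e-05), FOS had a log2(FC) of 1.69 and PHLDA1 of 1.60. The list is not uniform in direction, since CCND1, which encodes cyclin D1 (log2(FC) -0.99), DUSP4, a phosphatase of MAP kinases (-0.84), and MYC (-0.67) fell, while ETV4 (-0.08) and SPRED1 (-0.04), named after their values were seen, were not called.

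**Figure D3:**
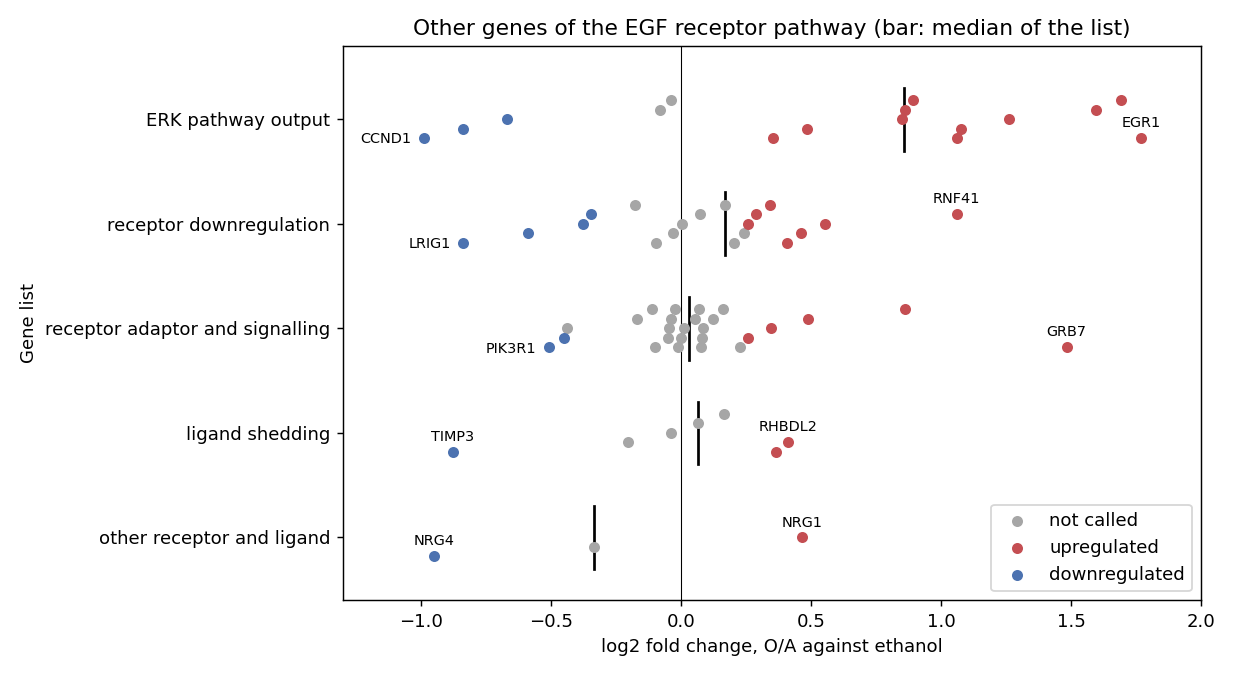
The log2(FC) in O/A against ethanol (x axis) of each tested gene in 5 lists of the EGF receptor pathway (y axis), red where upregulated, blue where downregulated and gray where not called, with a black bar at the median of the list and the outermost genes named. Points are spread vertically for legibility. Most adaptor and signalling genes sit near 0, with GRB7 apart at 1.48, whereas 11 of 16 ERK pathway output genes lie to the right of 0 as upregulated.

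The genes whose pattern over the 8 libraries was most like that of HBEGF were CEBPB (Pearson r = 0.9997 on log2 TMM-scaled CPM), IL1A (r = 0.9995) and PTGS2 (r = 0.9995), with a log2(FC) of 2.11, 2.00 and 1.69. This is a description over 8 libraries in which the condition sets nearly all of the variance, and 377 of the 11395 genes compared had r above 0.99.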

How the data were processed

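Polyadenylated RNA of 8 N/TERT-1 cultures was sequenced. Alignment by the authors used HISAT2 2.0.1 and GRCh38.p13, and they deposited raw counts per Ensembl gene from HTSeq 0.6.1. The deposited FPKM values were within 0.005 of the count divided by exonic size and library total. The authors' table of their DESeq2 comparison (fold changes and p-values) was not used. The Ensembl release and strand setting are not given in the sources used here.

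Groups and replicate numbers came from the sample titles. Counts were fitted with edgeR 4.0.16 in R 4.3.3 (TMM scaling, robust quasi-likelihood test, Benjamini-Hochberg over 14893 genes reaching 10 counts in 4 or more libraries). Standard errors are the log2(FC) over the root of the F statistic, and 95% intervals use the fit's degrees of freedom. Alternatives were DESeq2 1.42.0, limma 3.58.1 on log2(FPKM + 0.1), on log2(FPKM + 1) and after quantile normalization, median-ratio scaling, other filters and thresholds, the replicate block and each library left out. The fits were tested on simulated data. Exact permutation tests used scipy 1.17.1.

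Members and gene lists were chosen with earlier results of these data known. All 10 members are named, with up to 3 called genes per direction of each list, every gene of lists of up to 7, and the 3 genes most like the member with the largest rise and, had one been called, the largest fall. EGF receptor family pseudogenes were not found in the table's descriptions (0 rows). Intervals and counts of few reads cover counting error and replicate spread in these libraries only.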

Additional observations from a re-analysis of the deposited data

Results flagged for a closer look

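In 1 of the 20 groups of 4 libraries looked at (10 genes in 2 conditions), 1 library stood far from the other 3, where chance gives about 1. It was O/A replicate 1 for BTC, at 1.09 TMM-scaled CPM (19 counts), while the remaining 3 ranged from 0.517 to 0.593 (9 to 11 counts).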

How the results depend on the processing

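The 7 upregulated members were called under every alternative that kept the threshold, except EGFR under quantile normalization (log2(FC) 0.17), and 7 were called with each library left out in turn. At an absolute log2(FC) above 1, 5 remained. No log2(FC) of a member changed direction. The count of downregulated members went from 0 to 1 (ERBB2) on log2(FPKM + 0.1) and with no fold threshold. A minimum mean FPKM of 5 left BTC and ERBB3 untested. BTC ranged from 0.08 to 0.77 over its alternatives.

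Of the 71 pathway list genes tested, 37 were called, beside 34.7% of all genes tested, and 36 to 39 with a library left out. A floor of 5 on the mean FPKM left 23 called of 51 tested, beside 2183 of 6797 over all genes. Past a log2(FC) of 1, 8 were called, all upregulated, where 2.56% of all genes tested were upregulated. The lists were chosen with earlier results known, so these comparisons are description only. At that mean FPKM the called genes were 3 in the adaptors and 6 in receptor downregulation, and 0 in the other family genes, of which 0 were tested. At a log2(FC) above 1 they were 0 in the other family genes, 0 in shedding, 1 in the adaptors, 1 in receptor downregulation and 6 in ERK output. With no fold threshold they were 5 in shedding and 15 in the adaptors. On log2(FPKM + 1) they were 1 in the other family genes and 6 in receptor downregulation. For the filters and thresholds the construction sets the change, and for log2(FPKM + 1) the cause was not tested.

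Without division by length, the ethanol shares were 49.5% for AREG, 21.01% for EREG, 23.8% for TGFA, 2.86% for HBEGF and 2.78% for EPGN, and the O/A shares 48.4%, 28.5%, 10.7%, 10.3% and 2.05%.

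Replicate numbers gave no pairing (correlations 0.114, 0.003, -0.082 and 0.203), and 3 of 8 libraries correlated best with their own number. With the replicate block 7 members were still called, all upregulated, and 5160 genes in all, 5117 of them shared. The depth limits BTC, ERBB4, EGF and NRG4.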
